A study of Mus musculus with 20 samples.

Results

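Interferon response and antigen presentation genes are the genes that a cell switches on when it senses a virus or receives an interferon signal, together with the genes that display peptides on the cell surface. The 31 genes described here were taken from a fixed list of names, which was drawn up with earlier results of these data known. Of the 31, 28 had a probe set that the array annotation assigns to 1 gene symbol, out of 12393 such genes on the array. Of those 28, 11 were bright enough to be tested, and 17 fell under a filter on dim genes. The remaining 3, Isg15, Ifi44 and Xaf1, had no probe set with 1 symbol and have no value here.

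The cells were primary mouse embryonic fibroblasts, connective tissue cells grown directly from embryos at 13.5 days post coitum. One group was wild type and the other was E2F4 null, lacking E2F4, a transcription factor known mainly as a repressor of cell cycle genes in resting cells. The wild type group held 10 cultures from 3 embryos, with 3, 3 and 4 cultures, and the null group held 10 cultures from 5 embryos, with 2 cultures each. The embryo is the replicate, so n is 3 against 5, and cultures of 1 embryo show only the spread within it. The labels name no agent added to the cultures, and give no strain, allele, sex, litter, passage or scan batch. A difference between embryos can therefore not be told apart from any of these.

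Every array carried 1 culture on 1-colour Affymetrix chips, whose signal is the brightness of a probe set on a linear scale. The trimmed mean signal was 500.2 on each of the 20 arrays, which shows a common scaling, and median signals ran from 135 to 146. The ratio of 3′ to 5′ probe sets, a check of RNA integrity, was 1.10 to 1.25 for actin and 0.685 to 0.764 for Gapdh. The signals of the control probe sets deviated from the other arrays by 0.357 (log2) in culture 1 of wild type embryo 2 and by 0.493 in culture 2 of null embryo 4, against 0.100 to 0.289 elsewhere. E2f4 itself, with 1 probe set, had a signal of 214 ± 6.47 (SD, n = 3) in wild type and 166 ± 17.6 (SD, n = 5) in null embryos. The difference of -0.35 (log2) had a limma adjusted p of 0.363. Which stretch of E2f4 was deleted is not in the labels, so this probe set is no check of the genotype if it reads another stretch. In a culture, fewer cells of a type and less RNA per cell cannot be told apart.

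Type I interferons bind the IFNAR receptor, whose kinases JAK1 and TYK2 activate STAT2. STAT2 joins IRF9 in a complex that binds the interferon-stimulated response element (ISRE) in the promoters of target genes. Interferon gamma acts on promoters with a gamma-activated site (GAS), and through IRF1, which it induces. Fibroblasts are classic responders to both, and class I antigen presentation, with B2m as the light chain of the H2-K and H2-D molecules, is present at a basal level in most cells.

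The response elements can be read in the promoters of these genes. RefSeq promoter sequences of the GRCm38.p6 build, from 250 bases before to 50 after each transcription start, were at hand for 28 of the 31 members. Usp18, Mx1 and Mx2 were not among them. An ISRE-like motif, TTTC and TTTC with any 2 bases between on either strand, was in a promoter of 15 of the 28 members (53.6%), against 3.99% of all 27025 genes with a promoter sequence and 3.44% of all 32851 promoters. A GAS-like motif, TTCNNNGAA, which reads the same on both strands, was in a promoter of 7 of 28 members (25.0%), against 9.55% of all genes and 8.30% of all promoters. The members that hold the ISRE-like letters are Stat2, Ifih1, Isg15, Ifit1, Ifit3, Oas1a, Rsad2, Bst2, Trim30a, Gbp2, Gbp3, Igtp, Irgm1, B2m and Cxcl10. A match describes letters and is not evidence of binding.

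The windows below belong to the 6 members whose signal differed between embryos in at least 1 genotype. Each is 90 bases, read 5′ to 3′ on the strand of the gene. Capitals mark the ISRE-like motif, or for H2-D1 and H2-K1 the shorter TTTCNNTTC. That shorter form was chosen after the sequences were seen. It is in a promoter of 10 of 28 members (35.7%), of 8.68% of all genes and in 7.52% of all promoters, and it does not contain the longer motif. A motif on the opposite strand reads GAAA, any 2 bases, GAAA. In Irgm1 and Bst2 2 matches overlap and are capitalised as 1 run. The windows lie at chr11:48871421-48871510 (minus strand) for Irgm1, chr8:71537550-71537639 (minus) for Bst2, chr2:122147508-122147597 (plus) for B2m, chr3:142620564-142620653 (plus) for Gbp2, chr17:35262903-35262992 (plus) for H2-D1 and chr17:34000389-34000478 (minus) for H2-K1.
Irgm1: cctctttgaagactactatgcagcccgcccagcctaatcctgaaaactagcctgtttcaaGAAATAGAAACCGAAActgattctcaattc
Bst2: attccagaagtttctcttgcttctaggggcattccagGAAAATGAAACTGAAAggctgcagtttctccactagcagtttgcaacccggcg
B2m: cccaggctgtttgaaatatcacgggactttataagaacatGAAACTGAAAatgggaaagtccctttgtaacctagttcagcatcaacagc
Gbp2: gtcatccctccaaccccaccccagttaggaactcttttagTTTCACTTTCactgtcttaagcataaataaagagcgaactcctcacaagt
H2-D1: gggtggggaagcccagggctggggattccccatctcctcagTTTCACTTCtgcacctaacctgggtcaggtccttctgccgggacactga
H2-K1: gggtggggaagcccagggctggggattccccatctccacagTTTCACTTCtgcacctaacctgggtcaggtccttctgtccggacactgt
The H2-D1 and H2-K1 windows are identical at 86 of 90 bases. Only these windows were compared, and not the transcripts. Both genes encode related class I heavy chains. Their probe sets may therefore read each other's RNA, and the values of either gene are uncertain in that respect.

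Which members were above background was judged by the filter, since no detection calls were used here. Genes with a mean signal of at least 83.2, the 40th percentile of all genes, were kept. The 11 tested members were Stat2, Irf1 and Irf9 (transcription factors of the response), Ifit2, Ifi35 and Bst2 (antiviral effectors), Gbp2 and Irgm1 (interferon-inducible GTPases), and B2m, H2-K1 and H2-D1 (class I antigen presentation). By rank among all genes, B2m stood at percentile 97.4, H2-D1 at 80.2 and H2-K1 at 75.2. Stat2, at percentile 41.7, lay just inside the filter, and Ifih1, at 37.6, just outside it. These ranks place the probe sets, and do not compare amounts of RNA between genes.

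The 17 members under the filter include most of the classical antiviral effectors. Mx2, an antiviral GTPase, had a mean signal of 8.29, Mx1 15.4, Ifit1, which binds viral RNA, 15.8, Oasl2 17.8, and Rsad2, the antiviral enzyme viperin, 27.2. Irf7, the factor that amplifies type I interferon production, had 48.8, Usp18, which restrains the receptor, 34.0, and Ifih1, the RNA sensor MDA5, 67.0. The others were Ifit3 (57.3), Oas1a (44.7), Trim30a (32.9), Gbp3 (22.8), Igtp (51.9), the chemokine Cxcl10 (27.0), and 3 genes of peptide supply, Psmb8 (47.8), Psmb9 (19.5) and Tap1 (55.7). The filter is a percentile of signal and not a measured background, so some of these genes may be expressed, and their genotype differences are given without a test.

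**Figure D1:**
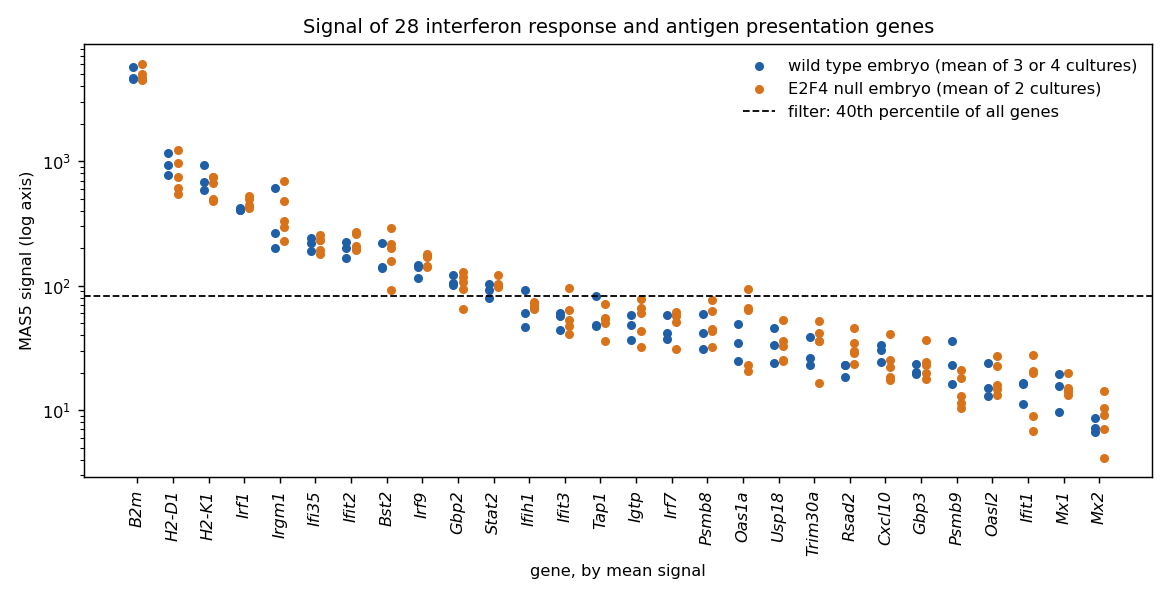
Signal of the 28 members with a probe set, on a log axis in array units, with 1 point per embryo (mean of its cultures), wild type in blue and null in orange, and the filter at 83.2 as a dashed line. B2m lies at the bright end, 11 members pass the filter and 17 lie under it in their mean over all arrays. Signals of different probe sets are not amounts that can be compared between genes.

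The first comparison asks whether loss of E2F4 changed the level of these genes. None of the 11 tested members passed the test between genotypes (limma on embryo means, Benjamini-Hochberg adjusted over 7436 genes, threshold 0.05), where 0.0134% of all genes tested passed, that is 1 of 7436. At an unadjusted threshold of 0.05, 0 of 11 members and 649 of 7436 genes passed. Of the 11 members, 7 had a higher mean in the null, and the median difference was 0.13 (log2, null minus wild type) against -0.0035 over all genes tested. No member had groups of embryos that did not overlap on the log2 scale used for the test. Among all tested genes, 2.95% had every null embryo above every wild type embryo and 3.71% had every null embryo below.

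The 3 transcription factors all had a higher mean in the null, without passing the test. Irf9, the DNA-binding partner of STAT2, had signals of 141, 116 and 146 in wild type embryos 1 to 3. In null embryos 1 to 5 it had 171, 180, 144, 172 and 141. Embryos of both genotypes lay between 141 and 146, so the groups overlapped, and the lowest value was that of wild type embryo 2. The means were 134 ± 16.1 (SD, n = 3) and 162 ± 17.8 (SD, n = 5), a difference of 0.24 (log2, SE 0.12, 95% interval -0.02 to 0.51, limma adjusted p = 0.602).

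Irf1, a factor that interferon gamma induces, gave 406, 419 and 407 in the wild type embryos. The null embryos gave 420, 427, 530, 450 and 496. On this linear scale null embryo 1 and wild type embryo 2 were all but equal, and on the log2 scale null embryo 1 fell below wild type embryo 2 (8.75 against 8.76). The difference was 0.16 (SE 0.09, interval -0.04 to 0.37, adjusted p = 0.663). Stat2, a signal transducer of the type I response, gave 80.1, 102 and 92.5 in wild type and 102, 97.8, 104, 100.4 and 122 in null embryos. Only null embryo 5 stood clearly above the others, and the difference was 0.17 (SE 0.11, interval -0.09 to 0.43, adjusted p = 0.707).

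Among the antiviral effectors, Ifit2, an RNA-binding inhibitor of translation, gave 169, 225 and 200 in wild type embryos and 193, 262, 196, 271 and 207 in null embryos. The groups overlapped, with wild type embryo 1 below every null embryo, and the difference was 0.18 (SE 0.14, interval -0.15 to 0.50, adjusted p = 0.753). For Bst2, tetherin, which holds budding virus at the cell surface, the difference was 0.13 (SE 0.31, interval -0.57 to 0.83, adjusted p = 0.921). Ifi35 differed by 0.01 (SE 0.13, interval -0.28 to 0.30, adjusted p = 0.989). The sign for Bst2 turned without null embryo 2, to -0.03, and that for Ifi35 turned without wild type embryo 3 (-0.08) or null embryo 2, 3 or 5 (-0.01 to -0.04).

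The GTPases and the antigen presentation genes gave no called difference either. Irgm1, a GTPase of the defence against intracellular pathogens, had 362 ± 222 (SD, n = 3) in wild type and 406 ± 186 (SD, n = 5) in null embryos, a difference of 0.21 (SE 0.41, interval -0.72 to 1.13, adjusted p = 0.908). It was -0.11 without wild type embryo 3 and -0.0076 without null embryo 2. Gbp2, a guanylate-binding protein, differed by -0.11 (SE 0.18, interval -0.52 to 0.31, adjusted p = 0.891), and by 0.02 without null embryo 1.

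The 3 antigen presentation genes tested all had a lower mean in the null. B2m had 5019 ± 652 (SD, n = 3) in wild type and 4968 ± 661 (SD, n = 5) in null embryos, a difference of -0.01 (SE 0.12, interval -0.28 to 0.25, adjusted p = 0.981). The sign turned without wild type embryo 2 (0.09) or null embryo 1, 4 or 5 (0.0070 to 0.02). The other B2m probe set gave -0.19. H2-K1 had 732 ± 174 and 628 ± 133, a difference of -0.20 (SE 0.20, interval -0.64 to 0.25, adjusted p = 0.809). H2-D1 had 963 ± 200 and 823 ± 283, a difference of -0.26 (SE 0.26, interval -0.84 to 0.32, adjusted p = 0.807). Without wild type embryo 2, H2-K1 was -0.0121 and H2-D1 -0.11. With the mean of all probe sets, H2-K1 was -0.0753 and H2-D1 -0.0270. These intervals leave room for changes in either direction. Of the 17 members under the filter, 13 had a higher mean in the null, from -0.38 for Psmb9 to 0.40 for Rsad2, with a median of 0.09. The dimmer Rsad2 probe sets gave -0.15 and 0.20.

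**Figure D2:**
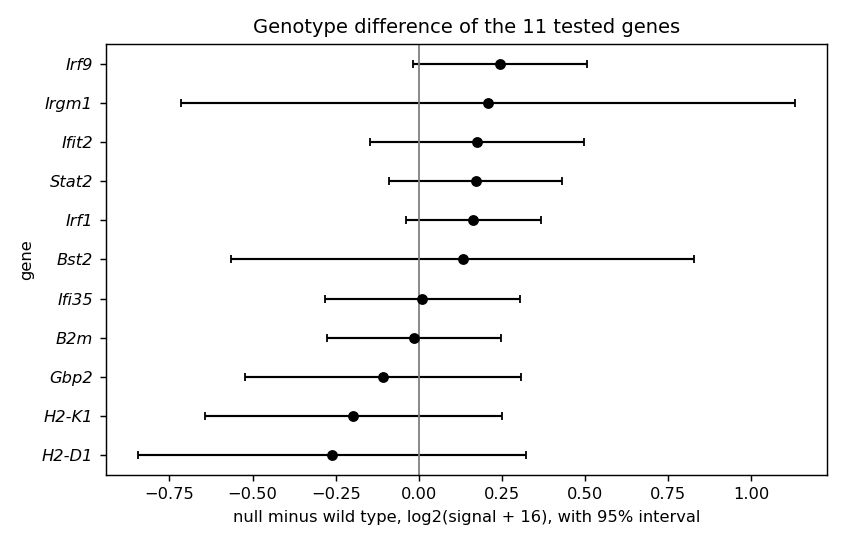
Difference between genotypes (log2, E2F4 null minus wild type) for the 11 tested members, with 95% intervals from limma on 3 wild type and 5 null embryo means. Every interval includes 0, and the intervals of Irgm1 and Bst2 are the widest.

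The second comparison asks whether embryos of the same genotype differed, set against the spread between cultures of 1 embryo. In wild type, 5 of 11 members differed between embryos (limma F test, adjusted over 7436 genes), which is 45.5% where 50.1% of all tested genes did. The 5 were Irgm1, Bst2, H2-D1, B2m and H2-K1, and their share is near the background. In the null, 6 of 11 members differed (54.5%) where 22.9% of all tested genes did, namely the same 5 and Gbp2. Without wild type embryo 2, Irgm1 alone was called in wild type (adjusted p = 0.0234), where 15.1% of all genes were called. The median SD between embryos was 0.18 (log2) for the members against 0.15 for all genes in wild type, and 0.22 against 0.13 in the null. The median SD between cultures of an embryo was 0.14 for the members in both genotypes, against 0.12 and 0.11 for all genes.

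Irgm1 had the smallest adjusted p of the members between embryos in both genotypes. The cultures of wild type embryo 1 gave 262, 279 and 258, those of embryo 2 gave 622, 601 and 623, and those of embryo 3 gave 208, 226, 187 and 189. In the null, the 2 cultures gave 495 and 472 for embryo 1, 684 and 702 for embryo 2, 373 and 285 for embryo 3, 206 and 250 for embryo 4, and 297 and 293 for embryo 5. Wild type embryo 2 and null embryos 1 and 2 were high, and the cultures of each of these 3 embryos stayed well above every culture of the remaining 5. The highest embryo was 3.04 times the lowest in both genotypes. The adjusted p was 1.12e-08 between wild type embryos and 2.23e-05 between null embryos, and Irgm1 was called under all alternatives run in either genotype.

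Igtp and Ifi47 are further immunity-related GTPases on chromosome 11, where Irgm1 lies. Ifi47, no listed member and chosen after its values were seen, had 33.1, 129 and 17.7 in the wild type embryos and 82.2, 113, 55.7, 50.5 and 30.8 in the null embryos. It was high in the same 3 embryos as Irgm1. It lay under the filter, and 7 protein-coding genes separate it from Irgm1 in the annotation. Igtp, with 141 genes between, had 36.8, 58.0 and 48.1 in wild type and 43.6, 65.9, 78.9, 60.1 and 32.4 in null embryos, so its order differed from that of Irgm1 in the null.

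Bst2 gave 138, 222 and 143 in wild type embryos and 91.7, 292, 159, 217 and 200 in null embryos. All 3 cultures of wild type embryo 2, from 197 to 244, lay above all cultures of the other 2 wild type embryos, which reached 161. The highest embryo was 1.60 times the lowest in wild type and 3.18 times in the null (adjusted p = 0.00224 and 0.000141).

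B2m gave 4599, 5771 and 4688 in wild type embryos and 4463, 6089, 5027, 4611 and 4649 in null embryos. Embryo 2 was highest in both genotypes, and the other embryos lay close together. The highest was 1.25 times the lowest in wild type and 1.36 times in the null (adjusted p = 0.00401 and 0.00356). Without null embryo 2 the call in the null was lost (adjusted p = 0.431). The other B2m probe set gave 4649, 6160 and 5003 in wild type and 4746, 6087, 4227, 4155 and 3975 in null embryos, and so had embryo 2 highest as well.

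H2-D1 gave 934, 1176 and 779 in wild type embryos and 543, 1240, 751, 966 and 614 in null embryos. H2-K1 gave 683, 926 and 587 in wild type and 477, 748, 748, 670 and 497 in null embryos. Among wild type embryos both class I heavy chains were highest in embryo 2, and among null embryos both were low in embryos 1 and 5. The ratio of highest to lowest embryo for H2-D1 was 1.51 in wild type and 2.28 in the null (adjusted p = 0.00241 and 5.8e-05). For H2-K1 it was 1.58 and 1.57 (adjusted p = 0.0129 and 0.000711). With the mean of all 9 H2-D1 probe sets in place of the brightest, H2-D1 was called in neither genotype (adjusted p = 0.111 and 0.0943). Several of the 9 were dim, with mean signals from 7.17 to 18.2. The second brightest, with a mean signal of 866, gave 999, 1105 and 743 in wild type and 616, 1046, 721, 988 and 647 in null embryos. It was not tested alone. In wild type, the H2-D1 call was also lost without embryo 3 (adjusted p = 0.0684). The wild type H2-K1 call was lost without culture 2 of each embryo (adjusted p = 0.077) and without the 2 arrays of outlying controls (adjusted p = 0.0599).

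Gbp2 gave 101, 121 and 106 in wild type embryos and 65, 128, 118, 94.4 and 107 in null embryos. It was low in null embryo 1, at 64 and 66 in its cultures, and was called in the null only (adjusted p = 0.0418). The difference in spread between the genotypes was not tested. The call was lost without null embryo 1 (adjusted p = 0.439) and in 5 further of 13 alternatives, with adjusted p up to 0.114 in those 5. The remaining tested members, Stat2, Irf1, Irf9, Ifit2 and Ifi35, were not called between embryos in either genotype in the main fit. Ifit2 was called between null embryos with quantile normalization, median centring, the mean of all probe sets or eBayes without trend. It was also called there without null embryo 5, and between wild type embryos without embryo 3 or without culture 3 of each embryo. In wild type, Ifi35 was called with quantile normalization, without embryo 1 or without culture 1 of each embryo. Stat2 was called in wild type with the mean of all probe sets.

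**Figure D3:**
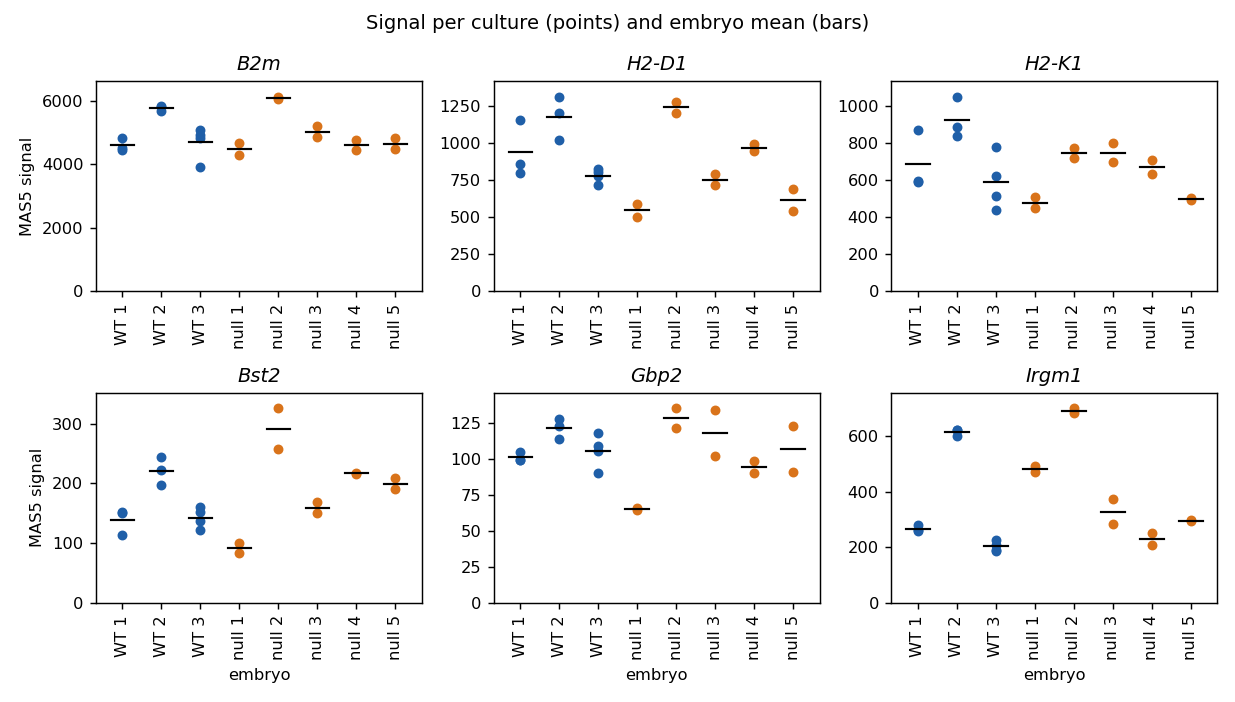
Signal in each culture (1 point each) for the members called between embryos, by embryo, with wild type in blue, null in orange and the embryo mean as a black bar. The signal axes are linear in array units and start at 0. Irgm1 is high in wild type embryo 2 and null embryos 1 and 2, while Bst2, H2-D1 and B2m are highest in embryo 2 of each genotype.

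The order of the embryos recurred across the members, a pattern noticed after the values were seen. Wild type embryo 2 was the highest of 3 in 10 of 11 tested members, against 39.7% of all tested genes, and Irf9 was the exception, with wild type embryo 2 lowest. Null embryo 2 was the highest of 5 in 7 of 11, against 22.7% of all genes. Null embryo 1 was the lowest of 5 in 7 of 11, against 22.9% of all genes. These 7 include B2m, whose other probe set had null embryo 5 lowest. Embryo 2 was highest in both genotypes at once in 6 of 11, against 14.8% of all genes. The labels do not say that the shared number links these embryos. Over all 7436 tested genes, the deviations of wild type embryo 2 and null embryo 2 from their group means correlated at 0.64, so genes in general showed this likeness. Among the 17 dim members, wild type embryo 2 was highest in 13, null embryo 2 highest in 8 and null embryo 1 lowest in 8. No share over all dim genes was computed to set beside these counts. The signal at the 20th percentile of each array was 17.5 to 18.1 in wild type embryo 2 and 13.3 to 16.2 in wild type embryos 1 and 3. It was 17.2 and 18.3 in null embryo 2 and 14.1 to 18.9 in the other null embryos. The part of this difference among dim probe sets in the counts was not tested. Members that share a signalling pathway are not independent of each other, so the counts are a description.

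The size of this pattern was modest. The median deviation of the 11 members from their mean over all 8 embryos was 0.20 (log2) in wild type embryo 2, and -0.11 in both wild type embryos 1 and 3. In null embryos 1 to 5 it was -0.14, 0.28, 0.02, 0.03 and -0.03. Irgm1 did not follow it in null embryo 1, where it was high while Bst2, Gbp2, H2-K1, H2-D1 and B2m were at their lowest among null embryos. For B2m this held in the brightest probe set only. In the other one null embryo 5 was lowest, at 3975, and null embryo 1 had 4746.

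**Figure D4:**
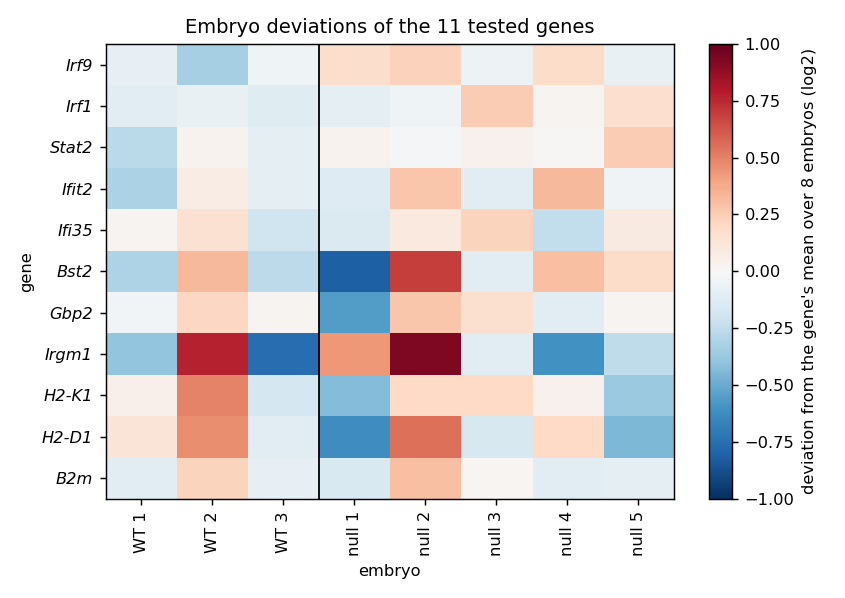
Deviation of each embryo from the mean of the gene over all 8 embryos (log2, red above and blue below) for the 11 tested members, with a line between wild type and null embryos. Wild type embryo 2 is the highest wild type embryo in 10 of 11 members, and null embryo 1 is the lowest null embryo in 7 of 11.

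Markers of cell types were read in the same embryos. All 13 fibroblast markers passed the filter. This cannot tell a culture of fibroblasts alone from a mixed one, since 14 of 18 macrophage and leukocyte markers passed it too. The fibroblast markers differed between embryos as well, 11 of 13 in wild type and 9 of 13 in the null (50.1% and 22.9% of all genes). Their summed signals ran from 96178 to 100465 in wild type and from 89215 to 98818 in null embryos. Wild type embryo 2 and null embryos 1 and 2, where Irgm1 was high, had the lowest signals of Pdgfra, a receptor of mesenchymal cells, with 852, 191 and 1200 in wild type and 197, 339, 908, 1110 and 1368 in null embryos. Lum, a matrix proteoglycan, gave 597, 81.8 and 2220 in wild type and 202, 133, 917, 1007 and 1408 in null embryos. Fn1, fibronectin, went the other way and was highest in those 3 embryos, with 14422, 16590 and 13531 in wild type and 16093, 15634, 11587, 11201 and 11413 in null embryos. These 3 markers were named after their values were seen. Of the 13 markers, wild type embryo 2 was lowest of the wild type embryos in 8 and highest in 4. Their part in the Irgm1 result was not tested.

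Of 18 macrophage and leukocyte markers, 14 were tested and 4 lay under the filter, among them Ptprc, the pan-leukocyte antigen CD45. The summed signal of the 18 was 2618, 4085 and 2411 in wild type embryos and 2117, 3348, 3361, 6529 and 3761 in null embryos. Wild type embryo 2 was highest in 13 of the 14 tested and null embryo 1 lowest in 12, as for the members, while null embryo 4 was highest in 13. Between embryos, 13 of 14 were called in wild type and 14 of 14 in the null, against 50.1% and 22.9% of all genes. Between genotypes none was called, with a median difference of 0.27 and a lowest adjusted p of 0.766. Macrophages express interferon-inducible and class I genes too, and the part of these cells in the order of the embryos was not tested. Of 7 endothelial markers 1 was tested, and their summed signal was highest in embryo 2 of each genotype, with 240, 402 and 230 in wild type and 265, 373, 319, 317 and 281 in null embryos. Of 5 epithelial markers 2 were tested, Krt18 and Krt19, both keratins and both called between embryos in each genotype. Krt18 gave 93.9, 193 and 60.7 in wild type and 213, 206, 108, 110 and 103 in null embryos, and so was high in the same 3 embryos as Irgm1. Krt19 gave 170, 294 and 201 in wild type and 451, 361, 211, 287 and 311 in null embryos, also highest of its genotype in those 3. Their part in the member results was not tested.

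The summed signal of H2-D1 and H2-K1 was 1618, 2102 and 1366 in wild type embryos and 1021, 1988, 1499, 1636 and 1112 in null embryos. Null embryo 4, highest in the macrophage sum, was second to null embryo 2 here.

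**Figure D5:**
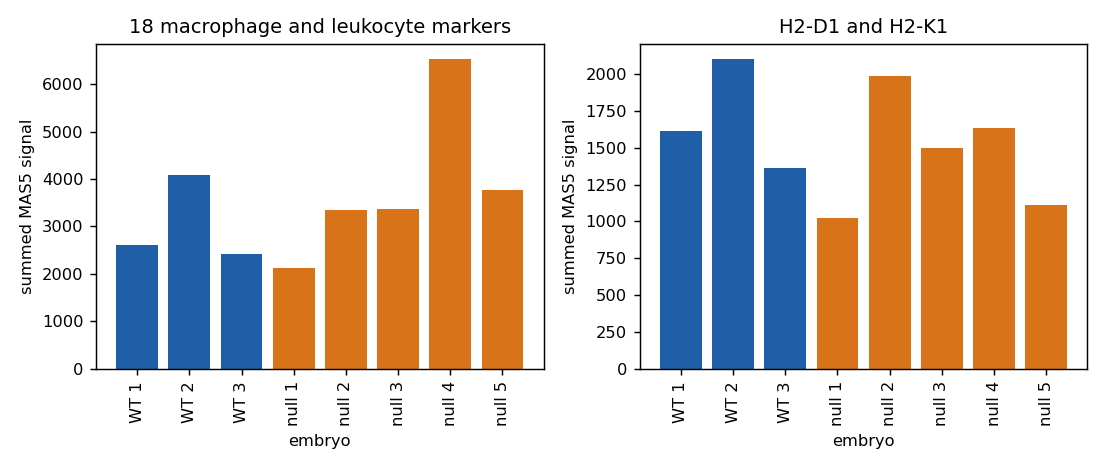
Summed signal per embryo (bars, linear array units) of the 18 macrophage and leukocyte markers on the left and of H2-D1 and H2-K1 on the right, wild type in blue and null in orange. The macrophage sum is highest in null embryo 4, at 6529, while the sum of the class I genes is highest among null embryos in embryo 2, at 1988.

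The wider pathway was read from a list of 82 further genes, of which 62 had a probe set and 35 were tested. None of the 35 was called between genotypes (lowest adjusted p = 0.363), while 4 passed at an unadjusted 0.05. The null mean was higher in 12 and lower in 23, with a median difference of -0.04. Between embryos, 11 of 35 were called in wild type, where 50.1% of all genes were, and 11 of 35 in the null, where 22.9% were.

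The list of receptors, kinases and their inhibitors had a lower mean in the null in all 9 tested, with a median of -0.16 and none called. Among all tested genes, 48.9% had a higher mean in the null. Of the genes on this list under the filter, Ptpn6 went the other way, with mean signals of 54.6 in wild type and 77.0 in null embryos. Socs1 had 52.6 and 46.4. The 9 tested include Socs3 and Pias1, which restrain the signal. Ifngr1, the ligand-binding chain of the interferon gamma receptor, had -0.28 (adjusted p = 0.519), and Ifnar2, a chain of the type I receptor, -0.15 (adjusted p = 0.582). Of the nucleic acid sensing genes 6 were tested and 3 had a higher mean in the null. Irf3, which switches on interferon beta, had -0.18 (adjusted p = 0.593), and its kinase Tbk1 had 0.10 (adjusted p = 0.645). The 5 interferon genes themselves, Ifnb1, Ifna1, Ifna2, Ifna4 and Ifng, all lay under the filter, with mean signals from 2.22 to 20.6.

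Of 13 other interferon-stimulated genes tested, 4 had a higher mean in the null. Trim21, a cytosolic antibody receptor, had 0.39 (adjusted p = 0.527), and Ifitm1, which blocks viral entry, -0.41 (adjusted p = 0.585). Among them, 6 differed between wild type embryos and 5 between null embryos, against 50.1% and 22.9% of all genes. Of 7 class I loading and peptide supply genes tested, 5 had a higher mean in the null. Canx, the chaperone calnexin, had 0.16 (adjusted p = 0.363), with every null embryo above every wild type embryo. Tapbp, the chaperone tapasin, which loads peptide onto class I molecules, had -0.28 (adjusted p = 0.459), with every null embryo below. Tbk1 likewise had every null embryo above every wild type embryo, and none of these genes passed the test. Among all tested genes, 2.95% had every null embryo above and 3.71% had every null embryo below. All 6 class II genes with a probe set were under the filter, with mean signals from 7.90 to 48.8.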

How the data were processed

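Per the submitters' processing notes the authors used MAS5, and the deposited table holds linear signal intensities. The MAS5 version is not given in the sources used here, and no detection calls were used. It held 22690 probe sets, 64 of them controls, 20393 with 1 gene symbol and 691 with several; 20364 symbols matched the RefSeq table of GRCm38.p6. Isg15 had a probe set with several symbols. Titles hold 2 numbers, read as embryo and culture from the design text. Each gene was represented by its brightest probe set. Values were log2(signal + 16) averaged per embryo; such differences understate the change of dim genes. Scaling to a common mean hides a change shared by all genes. A filter at percentile 40 of mean signal left 7436 of 12393.

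The genotype comparison used limma 3.58.1 under R 4.3.3 (two-sided, eBayes with trend, Benjamini-Hochberg, threshold 0.05), and embryos within a genotype were compared with its F test over cultures. The number of arrays limits the precision. The p-values between embryos set the spread between embryos against the spread between cultures only, and the latter may be technical. Fits were tested on simulated data. All members are named with their state, and values per embryo or culture are given for those that passed a test, those with the smallest p and the brightest of each role; the other pathway genes are counted, with the 2 of smallest p per group named. The members and lists were chosen with earlier results of these data known, as were the tests.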

Additional observations from a re-analysis of the deposited data

Results flagged for a closer look

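Stat2, the interferon-specific signal transducer, was highest in null embryo 5, at a signal of 122. The other 4 null embryos lay between 97.8 and 104, and on the log2 scale the gap to the nearest of them was 0.773 of the whole range, above Dixon's 95% limit for 5 samples. About 5% of groups pass that limit by chance, and the 11 tested members were examined in the null group.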

How the results depend on the processing

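No member was called between genotypes under any of the 21 alternatives (members' lowest adjusted p from 0.374 to 0.883), one of which, removal of the arrays whose controls stood apart, was chosen after seeing the data. The median difference of 0.13 ranged from -0.062 (without wild type embryo 3) to 0.155 when each embryo was left out. Members differing between wild type embryos numbered 5 of 11. Without the filter on dim genes they numbered 8 of 28 (30.5% of all genes), where Ifih1, Psmb8 and Tap1 were added. With a replicate left out they numbered 1 to 6 of 11, where 15.1% to 46.1% of all genes were called. The null count was 4 to 7 in the alternatives with 11 members, where 13.3% to 23.3% of all genes were called. It was 5 of 28 without the filter (11.2% of all genes) and 4 of 5 with a filter at the 60th percentile (26.8%). With an embryo left out, Stat2 ranged from 0.0884 to 0.243, Irf9 from 0.155 to 0.299, Ifit2 from 0.0732 to 0.267, H2-K1 from -0.346 to -0.0121 and H2-D1 from -0.422 to -0.107. Ifi35 ranged from -0.0847 to 0.0891, B2m from -0.0903 to 0.0909, Bst2 from -0.0294 to 0.348, Gbp2 from -0.187 to 0.0208 and Irgm1 from -0.111 to 0.656. With cultures 1 and 2 only, and with culture number as a replicate block, Ifi35 was -0.0192 and B2m 0.0102. Deviations of embryos with numbers 1, 2 and 3 from their group means correlated at 0.09, 0.64 and 0.42 (7436 genes); a pairing was accepted only with every correlation over 0.1 or a label that states it, and number 1 fell short. With embryo number as a replicate block the median difference was 0.0648, and 0 members were called. In that fit B2m was 0.0468, and Irgm1 rose from 0.207 to 0.546 (limma adjusted p = 0.456). The cause of the sign changes of Ifi35 and B2m and of the rise of Irgm1 was not tested. Of the 225 recomputed values of single members, 208 kept their direction and their side of the threshold. Low signal, with no measured background, limits the 17 members under the filter, and 3 against 5 embryos limits the size of a genotype difference that can be detected.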
